A study of Mus musculus with 4 samples.

Results

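Spots rich in meningeal RNA were taken from 4 Visium sections of the mouse brain, chosen by measured expression as the 90 spots of each section that scored highest on 6 genes. The score was the mean of ln(1 + UMIs per 10,000 UMIs of the spot) over Col1a1, Col1a2 and Col3a1 (fibrillar collagen chains), Slc22a6 (an organic anion transporter), Fmod (the matrix protein fibromodulin) and Myoc (myocilin). Together these member spots were 360 of the 13452 spots that held at least 500 UMIs and 250 genes, or 2.50% to 2.82% of a section. Because measured expression chose them, their difference from the other 13092 spots is given below as a description and carries no test.

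Visium counts RNA at barcoded positions on a slide, here by pairs of probes hybridised to thin formalin-fixed, paraffin-embedded (FFPE) sections, and each spot can hold several cells of different types. All 4 sections were coronal and came from wild-type C57BL/6J male pups at postnatal day 21. Dams were fed a diet with 2 mg/kg folic acid (MF, median folate) or 20 mg/kg folic acid (HF, high folate), starting before mating and lasting through pregnancy and lactation. There were 2 sections per diet, labelled as replicates 1 and 2, and where p-values are given they measure only the spread between these sections.

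The meninges are the membranes that wrap the brain, with the dura outermost, the arachnoid barrier beneath it and the pia on the brain surface. Their fibroblasts lay down collagen and basement membrane, carry transporters that clear solutes from the cerebrospinal fluid, and secrete retinoic acid, insulin-like growth factors and bone morphogenetic proteins. Border macrophages and the larger surface vessels lie among them, and the end feet of astrocytes form the glia limitans directly below.

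Depth differed between sections more than between members and other spots. Values of the 4 sections are given throughout with the MF sections first and each diet by replicate number. The median member spot held 19088, 11479, 7353 and 10025 UMIs, against 23601, 12092, 9329 and 11856 UMIs in the other spots. Summed over the 90 members, the sections gave between 832697 and 1936437 UMIs. The rule's threshold fell at a score of 0.746, 0.728, 0.828 and 0.528 for the last member, and the first spot outside scored 0.746, 0.718, 0.824 and 0.520, so there was no gap at the boundary. HF replicate 2 stood apart in what else its members held, with the most choroid plexus RNA and no UMI of the pituitary hormone subunit Cga. For the choroid plexus genes and Oxt, values without HF replicate 2 are given below.

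Members lay mostly, but not all, at the surface, so the label holds for part of them. Of the members, 60%, 52.2%, 72.2% and 61.1% lay within 2 rings of the outer tissue edge, counted in steps between neighbouring array positions, against 8.55%, 11.4%, 12.7% and 9.65% of the other spots. Position was not part of the score. Members made up 15.9% to 26.2% of the spots next to any off-tissue position, gaps inside the tissue included. Another member was touched by 61.1% to 71.1% of members, against 6.36% to 8.68% of other spots. The members farther in, 36, 43, 25 and 35 of them, lay partly along an arc in the interior and partly scattered. In MF replicate 1, MF replicate 2 and HF replicate 1 some also lay in a cluster running inward from a notch in the outer edge. Between 26 and 35 members per section touched no other member. The tissue ran past the array in 3 sections, with 65, 27, 0 and 38 kept spots at the array border.

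**Figure D1:**
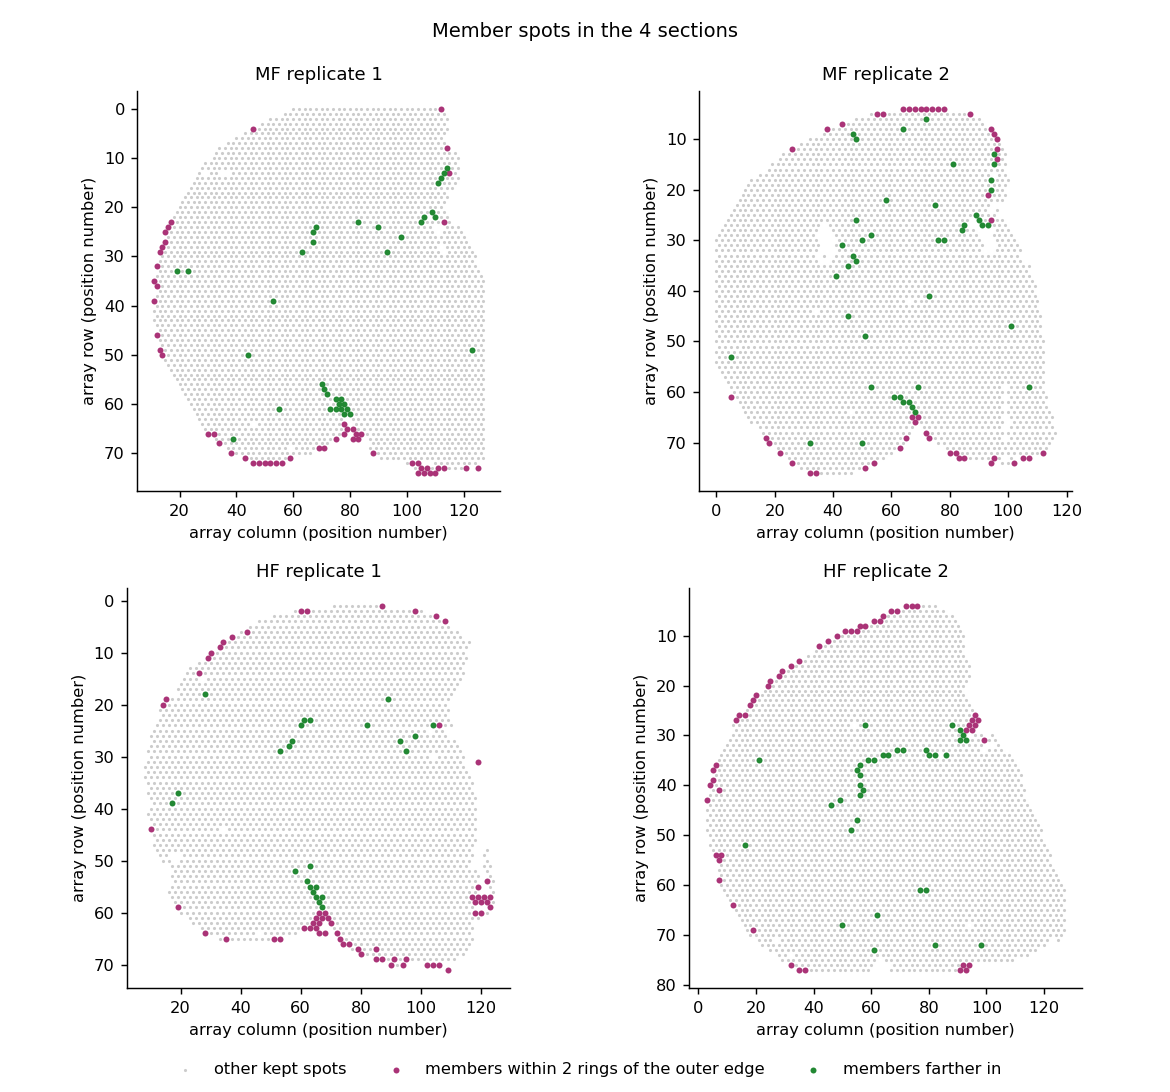
Position of the 360 member spots on the arrays, by array column and row; grey points are other kept spots, purple points are members within 2 rings of the outer tissue edge and green points are members farther in. Purple points follow the surface with gaps, and 25 to 43 members per section lie in the interior.

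Grouping all kept spots by position alone, without the score, also put meningeal genes next to off-tissue positions, together with the choroid plexus gene Ttr. Rings here were counted from the nearest off-tissue position of any kind. Of these positions, 11, 42, 8 and 9 lay in gaps inside the tissue. Dcn encodes the small matrix proteoglycan decorin. In ring 1 it reached 53.9, 31.6, 69.5 and 27.7 CPM (UMIs scaled to the same total in every sum). At 7 or more rings it stood at 7.66, 5.20, 8.37 and 5.28 CPM. Ptgds, the prostaglandin D synthase secreted by meningeal cells, was at 2152, 939, 2139 and 1109 CPM in ring 1 and 292, 212, 584 and 151 CPM in ring 2. For both genes ring 1 was above every deeper ring in all 4 sections, and most of the drop lay within 1 ring. Foxc2, a transcription factor of the arachnoid and dura, stood at 13.8, 7.27, 18.03 and 8.02 CPM in ring 1 and at 0.733, 0.737, 0.823 and 0.419 CPM in the deepest group. Ttr, the transthyretin secreted by the choroid plexus, was at 12567, 12805, 13969 and 25548 CPM in ring 1 and 2075, 714, 2781 and 2705 CPM in the deepest group, and its part in the other values was not tested. The neuronal glutamate transporter Slc17a7 ran the other way, with 1256, 1153, 1184 and 1288 CPM in ring 1 and 1951, 1867, 1816 and 1793 CPM in the deepest group.

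**Figure D2:**
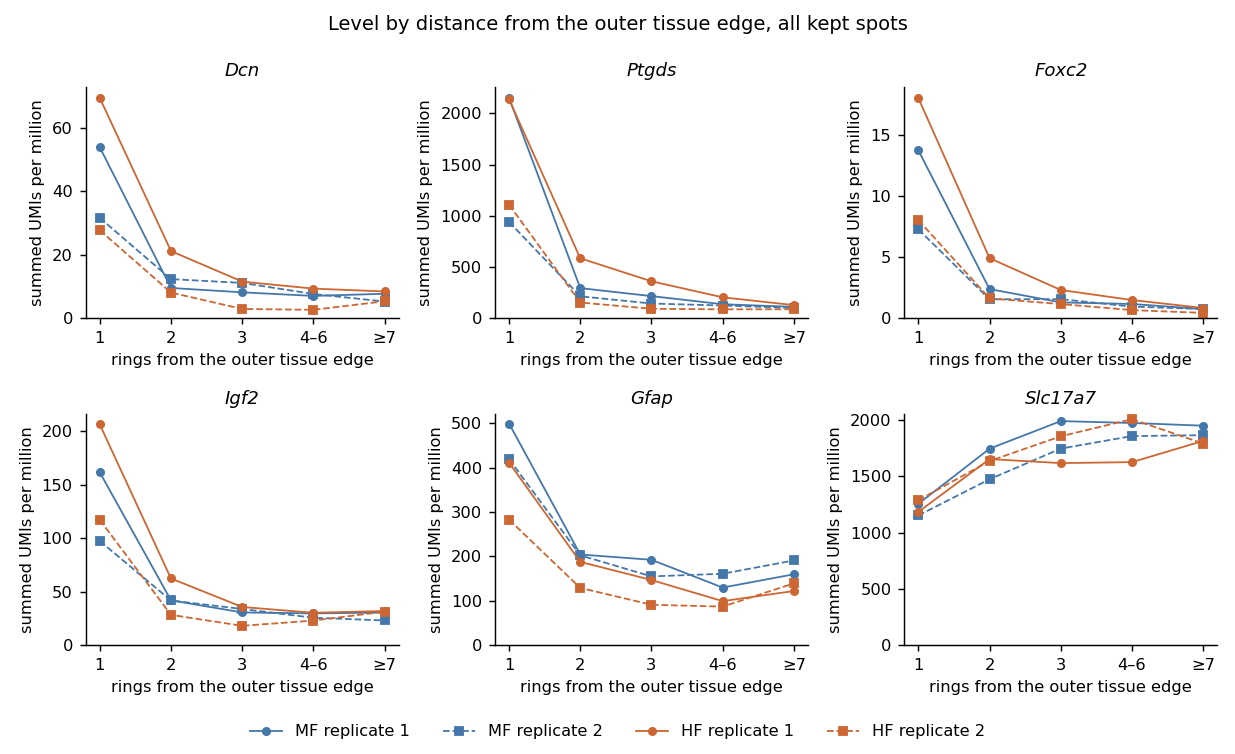
Summed CPM of 6 genes by ring, over all kept spots of each section. Circles are replicate 1, squares replicate 2, blue MF and orange HF. Rings were counted from the nearest off-tissue position, gaps inside the tissue included, although title and axis name the outer edge. In all 4 sections Dcn, Ptgds, Foxc2, Igf2 and Gfap are highest in ring 1 and Slc17a7 is lowest there.

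The genes that chose the spots had these levels. Col1a1 (chromosome 11, 94936224 to 94953042 on GRCm38) was at 445, 387, 627 and 288 CPM in the summed members, against 18.1, 18.9, 23.3 and 10.3 CPM in other spots. Slc22a6 (chromosome 19, 8618039 to 8628299) was at 109, 90.2, 145 and 74.6 CPM and Fmod (chromosome 1, 134037254 to 134048277) at 176, 108, 247 and 94.2 CPM in members. Myoc (chromosome 1, 162639155 to 162649693), expressed in fibroblasts and in glia limitans astrocytes, was at 371, 417, 234 and 221 CPM. Unlike the others, Myoc was lower in both HF sections than in both MF sections, in other spots too (17.9, 21.7, 14.5 and 12.2 CPM).

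Outside the score, the genes with the highest ratio of members to other spots were genes of fibroblasts, matrix and vessel walls. Of 10694 genes with a mean of at least 10 CPM over the 8 sums, 502 were at least 2-fold higher in members in all 4 sections (4.69%) and 0 were at least 2-fold lower in all 4 (0.0%). A gene could pass that level through the members alone, so the shares describe this table only. Among genes with at least 20 UMIs in the members of every section, the 10 with the highest ratio, ranked by the section where it was smallest, were Ptgds, Dcn, Aldh1a2, Eln, Acta2, Lum, Tagln, Foxc2, Slc13a4 and Ogn. Ptgds (chromosome 2, 25466709 to 25470046) stood at 4580.1, 2730.3, 5043 and 2453 CPM in members and 134, 123, 209 and 94.2 CPM in other spots, a mean log2 ratio of 4.71 ± 0.27 (SD, n = 4 sections), or 26.1-fold. Ranked by the section where the ratio was nearest 0, among genes with at least 20 UMIs in the other spots of every section, the lowest was Tnmd, a tendon and dural gene, although other genes had lower means. It had 0 UMIs in members of every section and 1.47, 1.02, 0.937 and 0.991 CPM in other spots, a difference that the members' depth could not show.

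**Figure D3:**
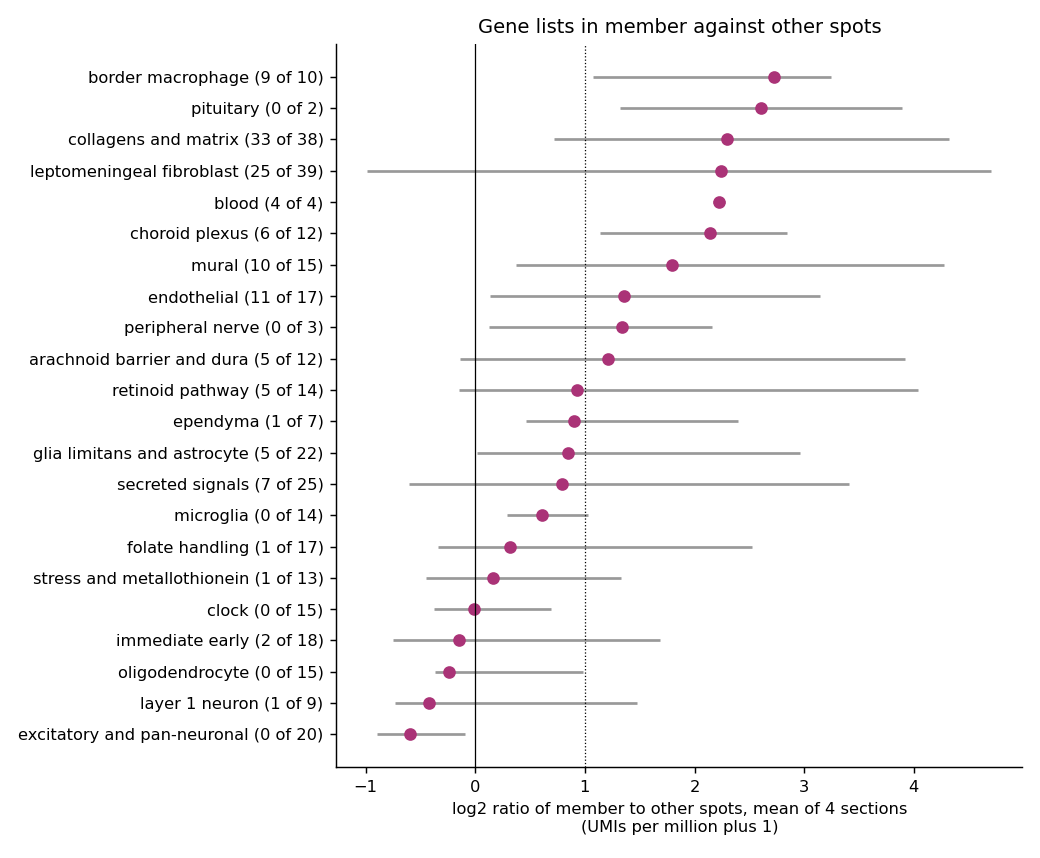
Median (purple point) and range over genes (grey line) of the log2 ratio of member to other spots for each marker list, with 1 CPM added and ratios averaged over the 4 sections; the dotted line marks 2-fold, and beside each name stand the genes at least 2-fold higher in all 4 sections and the genes that passed the level filter. Border macrophage, matrix and leptomeningeal fibroblast lists lie above 2-fold and the neuronal list below 0.

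Matrix genes were higher in members almost throughout. Of 47 collagen and matrix genes measured, 38 passed the level filter and 33 of these were at least 2-fold higher in all 4 sections, with a median log2 ratio of 2.29 against 0.00 over all genes that passed. Eln, the elastin of artery walls and fibroblasts, was at 1041, 613, 1152 and 370.4 CPM in members and 42.9, 31.8, 48.5 and 23.03 CPM in other spots, with 57.1% to 65.9% of the member UMIs in the 9 richest of the 90 spots. Dcn was at 152, 127, 199 and 90.6 CPM against 6.87, 6.12, 9.19 and 3.84 CPM and Lum, which encodes the keratan sulphate proteoglycan lumican, at 60.9, 59.8, 69.7 and 53.3 CPM against 3.03, 2.61, 3.92 and 1.96 CPM. The type IV collagen chains Col4a5 and Col4a6 had log2 ratios of 3.05 ± 0.09 and 2.63 ± 0.16, and Col4a1 and Col4a2, the chains of nearly all vessel basement membranes, had 1.73 ± 0.16 and 1.39 ± 0.22. Sparc, made by many brain cells, was among the 5 genes that did not reach the threshold, at 0.72 ± 0.15.

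Fibroblast markers of the leptomeninges were less even. Of 47 measured, 39 passed the filter outside the score, 25 were at least 2-fold higher in all 4 sections and the median log2 ratio was 2.24. Solute carriers were prominent: Slc13a4, a sulphate transporter, was at 95.02, 61.7, 121 and 83.5 CPM against 4.47, 3.97, 6.999 and 3.94 CPM in other spots, and Slc6a13, a GABA and taurine transporter, at 72.8, 56.2, 93.7 and 39.98 CPM against 3.97, 3.19, 4.01 and 3.09 CPM. Slc6a20a, a proline transporter, was at 166, 126, 275 and 119.9 CPM against 14.9, 13.6, 16.95 and 10.4 CPM. Slc47a1, an organic cation exporter below the level filter, was at 13.9, 6.44, 48.04 and 8.88 CPM, and HF replicate 1 was highest. Gjb2, a gap junction protein of leptomeningeal cells, had a log2 ratio of 3.39 ± 0.36, while its astrocyte relative Gjb6 had 1.34 ± 0.27. Foxp2, Penk and Crym, which neurons express more widely, were below 0, at -0.98 ± 0.83, -0.58 ± 0.36 and -0.34 ± 0.29.

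Arachnoid and dural markers were fewer and lower. Of 20 measured, 12 passed the filter and 5 were at least 2-fold higher in all 4 sections, with a median log2 ratio of 1.21. Foxc2 (chromosome 8, 121116171 to 121118895) was at 34.1, 23.9, 40.8 and 19.5 CPM against 0.839, 0.895, 1.55 and 0.604 CPM, and Cdh1, the E-cadherin of arachnoid barrier cells, which lay below the level filter, at 21.7, 11.97, 16.8 and 7.11 CPM against 0.499, 0.387, 0.703 and 0.121 CPM. Both were lowest in HF replicate 2. The dural genes Kera, Dpt and Tnmd did not pass the filter, and Cldn11, which is also a myelin gene, had a log2 ratio of -0.14 ± 0.19.

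Among retinoid genes the enzyme that makes the ligand led. Aldh1a2 (chromosome 9, 71215789 to 71296243), which forms retinoic acid, was at 67.1, 64.4, 102 and 50.6 CPM in members and 3.07, 3.12, 5.24 and 2.15 CPM in other spots, with log2 ratios between 3.99 and 4.06, the narrowest span among the 10 genes with the highest ratio. Crabp2, the cellular carrier of retinoic acid, had a log2 ratio of 2.79 ± 0.76, and Stra6, the receptor that takes up retinol, had 2.11 ± 0.21 at a level below the filter. Of 14 genes of the pathway past the filter, 5 were at least 2-fold higher in all 4 sections. The nuclear receptors were closer to 0, from -0.15 ± 0.14 for Rxrb to 1.24 ± 0.29 for Rarg.

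Secreted signals varied. Igf2, an insulin-like growth factor, was at 331, 290.0, 443 and 266 CPM in members and 31.00, 25.9, 35.8 and 27.3 CPM in other spots, and Bmp6, a bone morphogenetic protein, at 122, 132, 196 and 113 CPM against 11.9, 13.8, 16.1 and 10.3 CPM. Bmp7, Sema3b (a repulsive guidance cue) and Wnt5a (a non-canonical Wnt ligand) followed at log2 ratios of 2.73 ± 0.16, 2.76 ± 0.26 and 2.04 ± 0.25. In all, 7 of 25 signals past the filter were at least 2-fold higher in all 4 sections. Cxcl12, the chemokine of the leptomeninges and of vessels, was at 0.90 ± 0.13, below the threshold. Fgf9, a neuronal growth factor, was at -0.60 ± 0.37.

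Border macrophage genes had higher ratios than microglial genes. Of 22 border macrophage genes measured, 10 passed the filter, of which 9 were at least 2-fold higher in all 4 sections and the median log2 ratio was 2.72, while of 14 microglial genes 0 were and the median was 0.61. Mrc1, the mannose receptor, was at 50.1, 44.2, 73.3 and 43.5 CPM in members and 5.30, 4.40, 4.42 and 4.16 CPM in other spots, and Pf4, a chemokine of resident macrophages, at 34.1, 31.3, 57.6 and 43.5 CPM against 3.52, 3.29, 4.16 and 2.95 CPM. P2ry12, a receptor of homeostatic microglia, was at 63.5, 91.1, 75.7 and 65.7 CPM against 57.6, 65.2, 63.4 and 53.1 CPM. Lyve1, Lyz2, Siglec1 and Ms4a7 were measured and stayed below the level filter. Apoe, which astrocytes share, was the 1 gene of these 10 that was not 2-fold higher in every section, at 1.07 ± 0.06.

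The class II antigen presentation genes within that list were all higher in members, so the start-proximal sequence of H2-Aa and H2-Eb1 is shown. H2-Ab1 and Cd74 were not searched. Cd74, the invariant chain that guides class II molecules, was at 45.96, 52.5, 126 and 87.1 CPM in members and 8.19, 7.26, 11.1 and 9.04 CPM in other spots, with 66.3% to 87.8% of member UMIs in the 9 richest spots of a section. The chains H2-Aa, H2-Ab1 and H2-Eb1, the last of them below the level filter, had log2 ratios of 3.05 ± 0.86, 2.86 ± 0.65 and 2.89 ± 0.61. The 250 bases before the RefSeq start (GRCm38.p6) are written 5′ to 3′ on the gene's strand, with the Y box CTGATTGG in capitals, an element bound by the NF-Y factor in class II promoters. Searched on both strands, those letters occur in 3.83% of 32851 RefSeq promoter windows of that length. In all, 6 motifs were searched in the windows of 13 genes, and the windows printed here are ones that held a match. The letters searched for the X box, another class II element, were in neither of the 2 windows. Forms of the X box with other letters were not searched, so its absence from these windows was not shown. H2-Aa lies on the minus strand, chr17:34287824-34288073, and H2-Eb1 on the plus strand, chr17:34305617-34305866.
H2-Aa: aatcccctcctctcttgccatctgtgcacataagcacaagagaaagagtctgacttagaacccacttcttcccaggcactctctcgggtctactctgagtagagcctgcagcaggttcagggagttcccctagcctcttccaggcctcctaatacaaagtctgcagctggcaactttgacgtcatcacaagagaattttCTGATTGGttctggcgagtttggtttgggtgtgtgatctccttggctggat
H2-Eb1: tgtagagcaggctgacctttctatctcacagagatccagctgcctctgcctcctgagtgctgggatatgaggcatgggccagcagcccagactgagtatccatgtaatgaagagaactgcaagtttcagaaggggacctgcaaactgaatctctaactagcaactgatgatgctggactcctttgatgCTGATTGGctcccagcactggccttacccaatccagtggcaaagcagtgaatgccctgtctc

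Vessel genes were higher in members, and the contractile genes of smooth muscle had the largest ratios among them, with Acta2 at 356, 186, 311 and 179 CPM against 14.5, 11.1, 11.5 and 10.5 CPM and Tagln at 278, 189.6, 291 and 151 CPM against 13.7, 10.6, 10.98 and 9.67 CPM. Myh11, the smooth muscle myosin, had a log2 ratio of 3.88 ± 0.37, and the pericyte genes Pdgfrb, Rgs5, Kcnj8 and Abcc9 had 1.80 ± 0.27, 1.28 ± 0.17, 0.93 ± 0.15 and 0.37 ± 0.34. Of 15 mural genes past the filter, 10 were at least 2-fold higher in all 4 sections, and of 17 endothelial genes 11 were. Vwf, more abundant in large vessels, was at 157, 101, 256 and 144 CPM against 16.2, 14.8, 21.3 and 15.2 CPM, a log2 ratio of 3.15 ± 0.34, whereas the capillary transporters Slco1a4, Slc2a1 and Mfsd2a had 1.05 ± 0.31, 0.95 ± 0.15 and 0.13 ± 0.38. Blood was held unevenly: Hbb-bs, an adult haemoglobin chain, was at 7998, 2875, 7936 and 4059.8 CPM against 1360.3, 834, 1478 and 799.5 CPM, highest in both replicates 1.

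Among the smooth muscle genes Acta2, Cnn1, Des and Myl9, only the window of Myl9 held a CArG box, and it was chosen for printing because of that match. Tagln, Myh11 and Actg2 were not searched. Myl9, which encodes a regulatory myosin light chain and had a log2 ratio of 3.30 ± 0.15, is shown with this serum response factor element in capitals. Its window runs over chr2:156775214-156775463 on the plus strand, from the same source. A CArG box on either strand occurs in 1.47% of the 32851 windows.
Myl9: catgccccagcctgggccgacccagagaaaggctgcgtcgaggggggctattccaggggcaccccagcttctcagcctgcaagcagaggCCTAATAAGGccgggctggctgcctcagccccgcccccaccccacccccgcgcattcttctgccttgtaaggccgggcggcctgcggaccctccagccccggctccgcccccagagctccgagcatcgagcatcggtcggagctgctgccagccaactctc

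Below the membranes, the astrocyte border was partly included. Gfap, the filament protein of glia limitans astrocytes, was at 1041, 1233, 904 and 564 CPM in members against 158, 173, 125 and 120.5 CPM, and Vim, vimentin, which fibroblasts share, at 293, 242, 345 and 271 CPM against 35.5, 34.5, 41.6 and 31.8 CPM. Pan-astrocyte genes moved less, with log2 ratios of 0.29 ± 0.13 for the glutamate transporter Slc1a2 and 0.57 ± 0.13 for the folate enzyme Aldh1l1, and 5 of 22 genes of the list were at least 2-fold higher in all 4 sections. Ndnf, a marker of layer 1 interneurons, was the 1 gene of 9 in its list to be so, at 49.1, 44.2, 58.8 and 39.98 CPM against 14.7, 16.6, 17.7 and 16.9 CPM. Neuronal genes were present but lower: all 20 measured had a mean log2 ratio below 0, with a median of -0.60, and Snap25, a synaptic fusion protein, was at 1534, 1908, 1553 and 1569.8 CPM against 2736, 2639, 2725 and 2517 CPM. Myelin genes were close to the rest of the section, with Mbp at -0.30 ± 0.19.

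RNA of tissues next to the meninges was concentrated in few spots. Ttr was at 8845, 16108, 6290.4 and 42872 CPM in members against 2245, 1880.5, 3279 and 2645 CPM, and the 9 richest spots held 92.1% to 94.5% of its member UMIs. Its mean log2 ratio was 2.51, and 2.01 without HF replicate 2. HF replicate 2 was highest by far, and it also had the most members in which Ttr made up at least 1% of UMIs, 14 against 5, 8 and 5 in the other sections. Summed over the 13 choroid plexus markers, the level was 10059, 18104, 7171 and 47104 CPM, and 6 of 12 past the filter were at least 2-fold higher in all 4 sections. Left without the Ttr-rich members, a selection made after the values were seen, the log2 ratio of Ttr was -0.81 and 428 genes were at least 2-fold higher in all 4 sections. Of 7 ependymal genes past the filter, 1 was at least 2-fold higher in all 4 sections, Mia, at 2.39 ± 0.65.

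Cga, the shared subunit of pituitary glycoprotein hormones, was at 146, 82.8, 97.3 and 0 CPM, with 98.2% to 100% of its UMIs in 9 spots where any were found. The 7 pituitary markers summed to 314, 124, 145 and 0.888 CPM, and Gh, Prl, Lhb, Fshb and Tshb did not pass the level filter. Peripheral nerve markers summed to 138, 137, 159.7 and 85.3 CPM, with Prx, a protein of peripheral myelin, below the filter. None of the 13 muscle and bone genes measured passed it, at 25.8, 25.8, 26.4 and 24.9 CPM in sum against 21.0 to 26.5 CPM in other spots.

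Over all genes past the filter, 4.69% were at least 2-fold higher in all 4 sections, and the folate, stress and clock counts were near that share. Of 17 folate genes past the filter, 1 reached that threshold, the folate receptor Folr1, which the choroid plexus makes. Folr1 was at 67.1, 112, 45.6 and 241 CPM against 15.1, 12.1, 19.9 and 16.9 CPM, and its log2 ratio was 0.04 without the Ttr-rich members. The reduced folate carrier Slc19a1 had 0.95 ± 0.08. Of 18 immediate early genes 2 reached the threshold, Klf2 and Ccn2, which vessels and fibroblasts also express, at 1.62 ± 0.10 and 1.68 ± 0.57. Of 13 stress genes 1 did, the small heat shock protein Hspb1 at 1.33 ± 0.23, and of 15 clock genes 0 did. Of the 9 proliferation genes measured, 0 passed the filter, and they summed to 32.5, 36.8, 48.04 and 34.6 CPM in members against 22.7, 24.3, 18.7 and 19.4 CPM in other spots, higher in members in all 4 sections.

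Against other spots at the tissue edge alone, the difference was smaller. Edge spots here were those next to any off-tissue position, gaps inside the tissue included. All 90 members of each section stayed in this comparison, with the 25 to 43 members farther in, so place and membership were not separated. With only the 163 to 249 other edge spots of each section as the comparison, 233 genes were at least 2-fold higher in members in all 4 sections and 16 at least 2-fold lower. The mean log2 ratio of Ptgds was then 2.85, that of Dcn 3.19, that of Acta2 3.62 and that of Mrc1 2.78. Gfap was at 1.69, Ndnf at 0.39 and Slc17a7 at -0.24, so for these the members and the other edge spots lay closer together. Ttr was at 0.11.

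Members at the outer edge and members farther in were not alike. Of 10958 genes with a mean of at least 10 CPM over the 8 sums of outer and inner members, 28 were at least 2-fold higher in outer members in all 4 sections (0.256%) and 1 in inner members (0.00913%), counts given with no test. That 1 gene, named after its values were seen, was Gng8, a G protein gamma subunit. Without MF replicate 2 the first count was 57, and without HF replicate 2 it was 84. Ptgds was at 8238, 5697, 6389 and 3734 CPM in outer and 1429, 988, 2303 and 1018 CPM in inner members, and Slc47a1 at 27.9, 17.4, 64.5 and 16.8 CPM against 1.92, 0, 14.6 and 0 CPM. Among the fibroblast markers 8 of 42 past the filter were at least 2-fold higher in outer members in all 4 sections. Score genes held by that list were not left out of this count. The score genes Slc22a6 and Fmod were also among the 28, with mean log2 ratios of inner to outer members of -1.34 and -1.58, whereas Col1a1 had -0.18. Cdh1 was at 37.9, 27.4, 21.5 and 11.8 CPM in outer and 7.69, 2.92, 7.29 and 1.88 CPM in inner members. Dcn and Lum did not separate the places in every section, with inner to outer log2 ratios from -0.87 to 0.18 and from -1.39 to 0.83.

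Inner members held more oligodendrocyte RNA and less fibroblast RNA than outer members. The 15 oligodendrocyte markers summed to 27258, 30761, 22391 and 34422 CPM in inner members and 11801, 13984, 12722 and 12518 CPM in outer members, higher inside in all 4 sections. In the other, non-member spots they summed to 26609, 27687, 22154 and 23606 CPM. Leptomeningeal fibroblast markers summed to 16689, 12832, 16191 and 9861 CPM outside and 6422, 6145, 7965 and 5561 CPM inside, lower inside in all 4. Border macrophage markers also had a lower sum inside in all 4, at 2609.8, 2256, 2729.9 and 2836 CPM outside and 2048, 1933, 2205 and 2286 CPM inside. Such a sum weighs abundant genes most. Of 13 genes of this list past the filter, 0 were at least 2-fold higher in outer members in all 4 sections. Their median log2 ratio of inner to outer members was -0.52. Mural markers had no common direction. Choroid plexus markers were higher inside in 3 sections and higher outside in HF replicate 2, where outer members reached 74712 CPM.

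**Figure D4:**
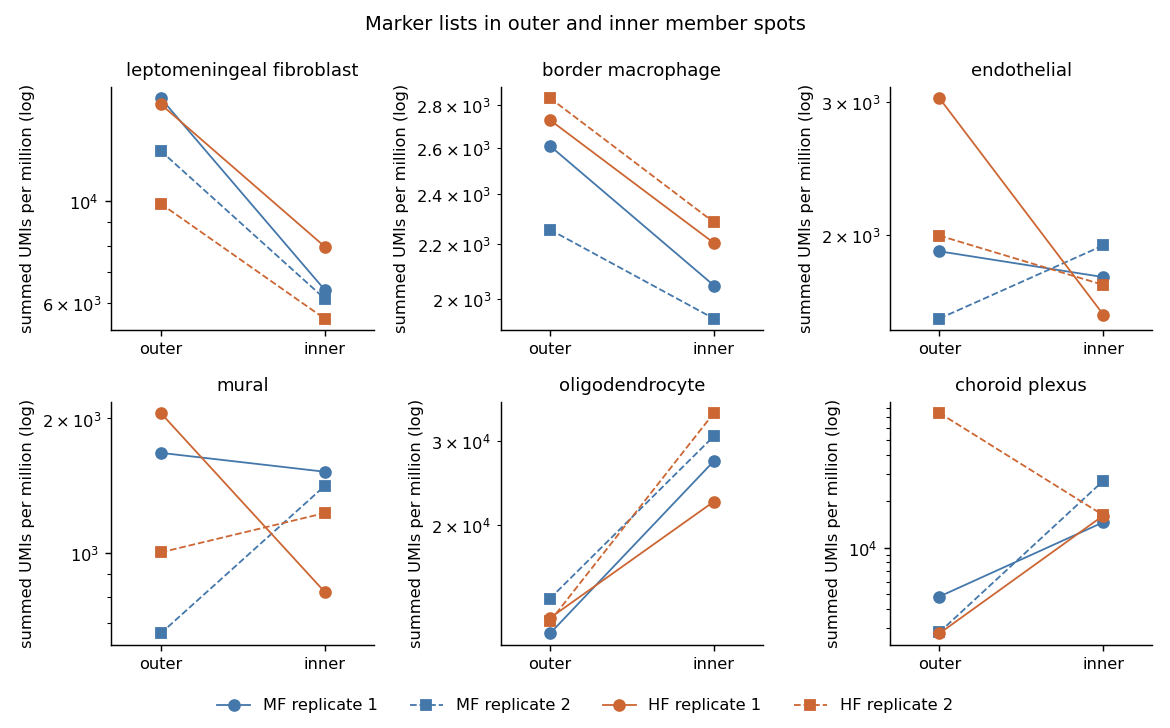
Summed CPM (log axis) of 6 marker lists in outer and inner members, 1 line per section; circles are replicate 1, squares replicate 2, blue MF and orange HF. Fibroblast and border macrophage lists fall and the oligodendrocyte list rises from outer to inner members in all 4 sections, and the choroid plexus list falls only in HF replicate 2.

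The comparison of diets asked whether maternal folic acid intake went with a different expression in these spots. No gene was called: of 11342 genes tested with edgeR on the counts summed per section, 0 had an adjusted p under 0.05 with at least a 1.2-fold change (0.0%), 402 had an unadjusted p under 0.05 (3.54%), and DESeq2 called 1, Egr1. Both HF sections were above both MF sections in 14.8% of genes and below them in 16.8%. The log2 fold change was above 0 in 5689 of the 11342 genes. Without HF replicate 1, 205 genes were called, without HF replicate 2, 45, without MF replicate 2, 1, and without MF replicate 1, 0; in each such fit a lone section stood for its diet and was taken to vary like the others. In sums over spots, fewer cells of a type and less RNA per cell cannot be told apart.

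The smallest adjusted p belonged to Avp and Egr1, at 0.16 each. Egr1, an activity-dependent transcription factor of neurons, was at 31.5, 42.3, 109 and 216 CPM in members, a log2 fold change of 2.22 ± 0.32 (HF over MF, SE). Both HF sections were above both MF sections, and in other spots as well, at 49.4, 58.4, 157 and 343 CPM. It was called in 6 of 15 alternatives. Avp, the vasopressin precursor of the hypothalamus, named because of its p, was at 29.95, 6.44, 275 and 127 CPM in members and 2.25, 2.54, 4.89 and 478 CPM in other spots, with a log2 fold change of 3.25 ± 0.44, and was called in 9 of 15 alternatives. Its log2 fold change was 1.43 without the Ttr-rich members, 4.91 without MF replicate 1 and 5.15 with 60 spots per section. Arc, a synaptic immediate early gene, was at 31.5, 46.03, 74.5 and 69.3 CPM in members and 51.6, 46.8, 105 and 76.9 CPM in other spots, with adjusted p = 0.999. Of 19 immediate early genes tested, 15 had a log2 fold change above 0, with a median of 0.34 in members and 0.43 in other spots.

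Border macrophage genes were all on the HF side of 0 without passing the test. Of 14 tested, 14 had a log2 fold change above 0, with a median of 0.40 in members and 0.07 in other spots, against 0.00 over all genes tested. Without HF replicate 1 the median was 0.22 and 10 were above 0, and without HF replicate 2 it was 0.62. In 7 of them both HF sections lay above both MF sections (14.8% of all genes tested) and in 0 below. Cd74 was at 45.96, 52.5, 126 and 87.1 CPM, a log2 fold change of 1.12 ± 0.20 with adjusted p = 0.75, and was called in 4 of 15 alternatives. The HF sections did not overlap the MF sections, but each member sum held only 57 to 105 UMIs of it. H2-Aa (chromosome 17, 34282744 to 34287823) was at 15.5, 6.44, 36.03 and 27.5 CPM, a log2 fold change of 1.40 ± 0.37, H2-Ab1 (chromosome 17, 34257689 to 34269419) at 12.4, 10.1, 34.8 and 21.3 CPM, 1.26 ± 0.35, and H2-Eb1 (chromosome 17, 34305867 to 34316674) at 6.71, 10.1, 25.2 and 11.5 CPM, 1.14 ± 0.47, each with adjusted p = 0.999. Pf4 was at 34.1, 31.3, 57.6 and 43.5 CPM and Dab2, an endocytic adaptor of macrophages, at 87.3, 80.1, 127 and 129.7 CPM, higher in both HF sections, while Mrc1 and Cd163, the haemoglobin scavenger receptor, overlapped between the diets. Of the 14 microglial genes, 7 had a log2 fold change above 0 and the median was 0.03.

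**Figure D5:**
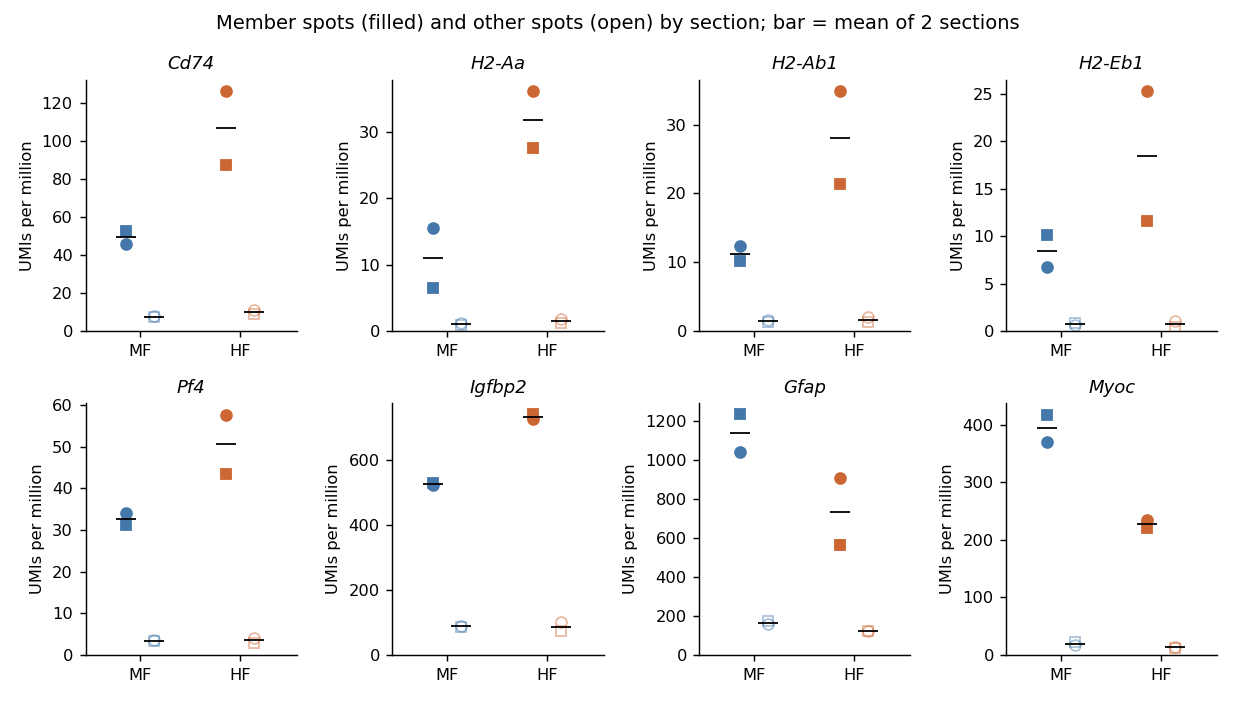
CPM of 8 genes in MF and HF sections; filled symbols are summed member spots, open symbols all other spots, circles replicate 1, squares replicate 2, and bars the mean of 2 sections. In members the 4 class II genes, Pf4 and Igfbp2 are higher and Gfap and Myoc lower in both HF sections, with no adjusted p under 0.05, and Myoc was used to choose the spots.

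Fibroblast markers lay more often above 0 than matrix genes, in 34 of 45 against 25 of 44 tested. Over all genes tested, 5689 of 11342 were above 0. Score genes held by a list were not left out of these diet values, and counts without them were not made. Of the 6 score genes, 5 were above 0 and 1 had an unadjusted edgeR p under 0.05. The contrast of the lists can therefore rest in part on genes that chose the spots. The median log2 fold change was 0.18 over 45 leptomeningeal markers tested and 0.05 over 44 matrix genes, against 0.10 and 0.03 for the same lists in other spots. Both HF sections lay above both MF sections in 7 of the 45 leptomeningeal markers and below in 1, and 5 had an unadjusted p under 0.05. Over all genes tested these shares were 14.8%, 16.8% and 3.54%. Without HF replicate 1 the median of the markers was -0.26 and 13 were above 0, and without HF replicate 2 the median was 0.54. Ptgds and Dcn overlapped between diets, with log2 fold changes of 0.03 ± 0.32 and 0.01 ± 0.27. Igfbp2, which binds insulin-like growth factors, was at 525, 528, 727 and 742 CPM, a log2 fold change of 0.49 ± 0.15 with adjusted p = 0.999. Foxc1, a transcription factor of meningeal fibroblasts, was at 40.8, 32.2, 82.9 and 43.5 CPM. Both genes were higher in both HF sections than in both MF sections. Aldh1a2 was at 0.18 ± 0.26, and of 16 retinoid genes 9 had a log2 fold change above 0.

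Of the remaining cell types, endothelial genes lay above 0 in 15 of 17 tested, against 5689 of 11342 over all genes. Their median was 0.22 in members and 0.09 in other spots. In 5 of the 17 both HF sections lay above both MF sections and in 1 below, against 14.8% and 16.8% over all genes. Summed over the list, members held 1823, 1791, 2550 and 1862 CPM, and only HF replicate 1 stood well above the rest. Vwf had a log2 fold change of 0.59 ± 0.25 with edgeR adjusted p = 0.999, and its HF and MF sections overlapped. Pltp, a phospholipid transfer protein, had 0.51 ± 0.14 and was not called. Gfap was lower in both HF sections, at 1041, 1233, 904 and 564 CPM, with -0.63 ± 0.21 and adjusted p = 0.999. Mt2, a metallothionein, was at 949, 851, 598 and 569 CPM in members and 541, 487, 348 and 282 CPM in other spots, lower in both HF sections in each. Among 20 folate genes tested the median was 0.15 and 12 were above 0, with Folr1 at 0.80 ± 0.53. Folr1 turned to -0.94 without HF replicate 2 and to -0.54 without the Ttr-rich members. The choroid plexus list had a median of 1.02, but in 0 of its 13 genes did the diets separate, and HF replicate 2 was the highest section. Without it the median was -0.64 and 0 of the 13 were above 0. Without the Ttr-rich members 0 genes were called as well.

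Diet differences in members were also set against those in the other spots of the same sections. Of 14845 genes tested with edgeR, 2 had a different log2 fold change in members (0.0135%), Oxt and Hcrt, both peptides of hypothalamic neurons. Oxt (chromosome 2, 130576173 to 130577054), the oxytocin precursor, was at 14.5, 76.4, 22.8 and 209.7 CPM in members and 0.397, 2.20, 0.674 and 649 CPM in other spots, a difference in log2 fold change of -6.37 ± 0.66 with adjusted p = 9.4e-06. HF replicate 2 alone was high in other spots, and without it the difference was -0.12. Hcrt (chromosome 11, 100761069 to 100762931), the orexin precursor, was at 34.6, 32.2, 110.5 and 0 CPM in members and 77.4, 82.1, 62.6 and 0.242 CPM in other spots. The difference was 2.04 ± 0.23 with adjusted p = 2.3e-05. HF replicate 2 held almost no Hcrt in either place, so the HF side of this difference rested on HF replicate 1. Without HF replicate 1 the value was -4.51, which rests on the near absence of counts in HF replicate 2. For Cd74 the difference was 0.77 ± 0.24 with adjusted p = 1.0, so a change particular to the members was not shown.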

How the data were processed

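Spatial RNA profiles were read from 4 Visium FFPE sections, 2 per maternal diet. Per the labels and the study's methods, the authors made the deposited raw UMI counts per spot and gene with Space Ranger on mm10 and analysed them with Seurat; the deposited Moran's I score of each gene was read but supports no result. Gene positions came from GENCODE vM21 and promoter windows from RefSeq.

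Spots with at least 500 UMIs and 250 genes were kept, which removed 18, and 90 members per section were taken by score. Array designs share barcodes between sections, and 19 of 341 distinct member barcodes occurred in more than 1. Ratios of members to other spots used CPM with 1 CPM added and a mean level of at least 10 CPM. Diets were compared on counts summed per section with edgeR 4.0.16 (quasi-likelihood, TMM, Benjamini-Hochberg) in R 4.3.3, with DESeq2 1.42.0 as an alternative. An exact test on a single value of 2 against 2 sections cannot go below p = 0.3333. The edgeR steps were also run on simulated counts with a common dispersion and changes only in well-counted genes. That run does not bear on genes with few UMIs or on genes high in a single section. Figures and sums used Python 3.11.15 with numpy 2.4.6, pandas 2.3.3 and matplotlib 3.10.9.

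Genes named were the 6 score genes, members of 25 marker lists, the 10 highest and 5 lowest ratios, and called genes with diets that did not overlap. Avp and Gng8 were named after their values were seen, and some genes that the rule covers are not reported here. The members and lists were chosen with earlier results of these data known. Alternatives were DESeq2, library size alone, no filter, the replicate block, leaving out each section, 60 or 120 spots, other scores, thinning to 2000 UMIs, outer members only, edge spots as the comparison and other pseudocounts.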

Additional observations from a re-analysis of the deposited data

Results flagged for a closer look

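The diet difference of 2 genes was not the same in members and in other spots of the same sections by edgeR's test of the difference. The log2 fold change of HF over MF in members minus that in other spots was -6.37 for Oxt and 2.04 for Hcrt. HF replicate 2 held 649 CPM of Oxt in its other spots, against 0.4 to 2.2 CPM in the other 3 sections, and 0.2 CPM of Hcrt there.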

How the results depend on the processing

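The count of genes called between diets in members, 0, was 1 with DESeq2, 43 without a filter on low counts, 1 each with 60 spots, with 120 spots, with the collagens alone and without Myoc in the score, 3 after thinning to 2000 UMIs, and 0 to 205 when 1 section was left out. The count that differed between members and other spots, 2, was 1 with DESeq2, 9 without a filter, 1 after thinning, 30 with outer members only and 2 to 84 when 1 section was left out. Genes higher in members, 502, were 258 after thinning, 233 against edge spots and 525 to 574 when 1 section was left out, and genes lower, 0, were 5, 16 and 0 to 1. Genes higher in outer members, 28, were 33 to 84 when 1 section was left out. The share of members near the edge, a mean of 61.4%, was 57.8% to 64.4% when 1 section was left out. The diet difference of Sostdc1, a choroid plexus gene, ranged from -0.11 to 2.21 when 1 section was left out and was negative without HF replicate 2. That of Hcrt between areas ranged from -4.51 to 2.09 and was negative without HF replicate 1, where HF replicate 2, nearly without Hcrt, stood alone for HF. That of Folr1 ranged from -0.94, without HF replicate 2, to 1.55, and was -0.54 without the spots rich in Ttr. The cause of these changes was not tested.

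With the replicate block, 23 genes were called in members and 15 differed between areas. The labels mark no shared batch, and 2 pairs are too few to show one from the data, so the sections were treated as sharing only a number. The difference of replicates 1 and 2 within MF correlated with that within HF at 0.138 over 11456 genes. Leaving out the spots rich in Ttr was added after the data were seen. With 2 sections per diet and sums of 832697 to 1936437 UMIs, calls in genes of few UMIs changed with the setting, as for H2-Aa, which was called in 2 of 14 alternatives.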
